A study of Mus musculus with 2 samples.

Results

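The genes described here are 39 genes of the cell cycle and of DNA replication, taken by symbol from the gene tables of both libraries. All 39 were found among 27933 gene symbols. By role, 12 belong to DNA replication (Rrm1, Rrm2, Tyms, Tk1, Mcm2 to Mcm7, Pcna and 2810417H13Rik, which is also called Pclaf). The 2 cyclins Ccne1 and Ccne2 act at the entry into S phase. Another 3 encode histones (Hist1h2ap, Hist1h1b and Hist1h2ae), and 17 act in mitosis (Mki67, Top2a, Birc5, Cdk1, Ccna2, Ccnb1, Ccnb2, Ube2c, Nusap1, Cdc20, Aurka, Aurkb, Plk1, Cenpa, Cenpe, Cenpf and Tpx2). The last 5, Stmn1, Hmgb2, Tubb5, H2afz and Cks1b, are high in dividing cells and are also made by many resting cells.

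Lymph node immune cells of 6 to 8 week old mice were profiled after heart transplantation by droplet-based single-cell RNA sequencing of 3′ ends. The allogeneic library came from BALB/c recipients of a C57BL/6 heart, and the syngeneic library from BALB/c recipients of a BALB/c heart. Each group is 1 library, so the differences below carry no replicate spread and were not tested. How many mice were pooled and when they were sampled is not known here.

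A dividing cell copies its DNA in S phase and separates the copies in mitosis. Nucleotide-making enzymes, the MCM helicase and the sliding clamp PCNA are switched on before and during S phase, and the kinases, spindle proteins and ubiquitin ligase subunits of mitosis follow in G2 and M phase. Most lymphocytes of a resting lymph node are out of the cycle, whereas T cells that have met antigen and B cells of germinal centres divide quickly. E2F factors bind upstream of many S phase genes. A CCAAT box bound by NF-Y and the cell cycle homology region TTTGAA or TTCGAA are known from upstream of many mitosis genes.

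RefSeq promoters (GRCm38.p6, 250 bases that end just before the first transcription start) were matched for 34 of the 39 genes, all but Mcm4, Ccne2, Ccna2, Aurkb and Stmn1. The 3 replication and 3 mitosis genes with the highest level in cycling T cells of both libraries together are shown. They lie at chr9:65890073-65890322 on the plus strand (2810417H13Rik), chr2:132253181-132253430 on the minus strand (Pcna), chr12:24708004-24708253 on the plus strand (Rrm2), chr11:99024190-99024439 on the minus strand (Top2a), chr7:135716380-135716629 on the minus strand (Mki67) and chr11:117848987-117849236 on the plus strand (Birc5). Each is written 5′ to 3′ along the gene, and capitals mark the letters of the CCAAT box and of the cell cycle homology region named above, on either strand.
2810417H13Rik: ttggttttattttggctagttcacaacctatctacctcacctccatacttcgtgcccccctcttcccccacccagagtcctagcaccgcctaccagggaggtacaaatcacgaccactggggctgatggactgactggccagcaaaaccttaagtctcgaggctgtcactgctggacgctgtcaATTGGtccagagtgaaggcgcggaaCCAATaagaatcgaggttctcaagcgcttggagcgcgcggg
Pcna: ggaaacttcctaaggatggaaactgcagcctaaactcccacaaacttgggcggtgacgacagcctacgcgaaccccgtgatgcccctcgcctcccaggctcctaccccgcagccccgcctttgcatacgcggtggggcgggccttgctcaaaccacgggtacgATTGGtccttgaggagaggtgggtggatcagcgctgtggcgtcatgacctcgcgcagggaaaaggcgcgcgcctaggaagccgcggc
Rrm2: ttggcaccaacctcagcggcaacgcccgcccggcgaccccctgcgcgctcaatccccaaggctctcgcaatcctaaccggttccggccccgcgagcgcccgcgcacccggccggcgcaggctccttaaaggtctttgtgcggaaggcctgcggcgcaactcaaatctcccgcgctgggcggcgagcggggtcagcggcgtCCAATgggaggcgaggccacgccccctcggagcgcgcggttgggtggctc
Top2a: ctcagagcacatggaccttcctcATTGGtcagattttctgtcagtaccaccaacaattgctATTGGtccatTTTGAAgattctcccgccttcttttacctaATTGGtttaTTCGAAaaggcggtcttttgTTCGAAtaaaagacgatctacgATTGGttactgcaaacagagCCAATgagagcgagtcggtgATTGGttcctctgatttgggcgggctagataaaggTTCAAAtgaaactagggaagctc
Mki67: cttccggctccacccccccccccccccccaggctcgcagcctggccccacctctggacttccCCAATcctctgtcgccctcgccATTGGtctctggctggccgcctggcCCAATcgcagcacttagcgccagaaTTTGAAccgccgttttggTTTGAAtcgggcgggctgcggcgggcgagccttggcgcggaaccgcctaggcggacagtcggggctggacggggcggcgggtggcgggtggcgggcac
Birc5: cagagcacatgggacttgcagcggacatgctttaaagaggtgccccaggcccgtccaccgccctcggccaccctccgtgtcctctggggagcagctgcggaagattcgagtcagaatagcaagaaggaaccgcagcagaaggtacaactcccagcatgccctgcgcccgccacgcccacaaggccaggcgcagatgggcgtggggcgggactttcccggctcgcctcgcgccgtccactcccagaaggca

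The letters CCAAT, on either strand, stood in 9 of 11 matched replication promoters and in 13 of 15 mitosis promoters, against 34.5% of all 27025 promoters of that length. TTTGAA or TTCGAA stood in 2 of 11 and 6 of 15, against 17.4% of all. Each of these replication and mitosis promoters also held CCAAT, so both kinds of letters stood together in 2 of 11 and 6 of 15, against 6.21% of all. The 3 histone promoters held both kinds as well. The E2F letters TTTGGCGC, TTTCGCGC or TTTCCCGC stood in 3 of 11 replication and 1 of 15 mitosis promoters, against 1.59% of all. Top2a had 6 CCAAT and 4 cell cycle homology matches and Mki67 had 3 and 2, whereas the window upstream of Birc5 had none. A match of letters is a description of the window and no measurement of binding.

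Unique molecular identifiers (UMIs, counted transcript molecules) totalled 8415043 over 3500 allogeneic barcodes and 46486632 over 7967 syngeneic barcodes. The barcode lists start at different depths, with a lowest total of 150 UMIs (allogeneic) and 3447 UMIs (syngeneic). Barcodes under 200 genes or above 10% mitochondrial UMIs were dropped, 2106 and 7957 cells were kept, and 66 barcodes were shared between the lists. T cells were recognised by Cd3d, Cd3e and Cd3g, B cells by a marker list that includes Cd79a, Cd79b and Ms4a1, and germinal centre B cells by at least 3 UMIs over 2 genes of a marker list that includes Mef2b and S1pr2. T cells held 2265 and 2546 CPM (UMIs per 1000000 UMIs of the class) of the Cd3 genes and 52.8 and 135 CPM of the B cell genes. Erythroid markers, all 5 of 5 detected in both, summed to 3731 CPM in allogeneic and 36.5 CPM in syngeneic T cells, and neutrophil markers to 962 and 12.2 CPM. Their part in the differences below was not tested. The mitosis ratio in T cells was −1.47 on the log2 scale with haemoglobin, mitochondrial and ribosomal protein genes left out of the totals, against −1.41 with them. That choice changes only the totals, and neutrophil genes stayed in them. In pooled cells a lower level can mean fewer cycling cells or less RNA per cell, so shares and levels per cycling cell are given apart.

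Cycling cells were found with 76 other genes of replication and mitosis, none of them among the 39, so that the levels of the 39 in these cells were not fixed by the choice of cells. Each cell was first thinned to 1000 UMIs, and shallower cells were left out, because deeper cells show more genes. A wide gate asked for at least 3 UMIs over at least 2 gate genes, and a strict gate for at least 5 UMIs. The wide gate was set first. The strict gate, planned as an alternative, is put first here, after seeing that counts at the wide gate moved more from one random thinning to the next.

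The 39 genes followed the gate genes in T and B cells of both libraries. With 0 gate-gene UMIs, the 17 mitosis genes summed to 61.6 CPM in allogeneic and 81.4 CPM in syngeneic cells, and the 12 replication genes to 244 and 251 CPM. At 3 gate-gene UMIs mitosis stood at 686 and 713 CPM. At 5 or more, mitosis reached 6570 and 5607 CPM and replication 3590 and 3740 CPM. The bin of 4 gate-gene UMIs held only 4 allogeneic cells, with 324 CPM of mitosis genes against 2712 CPM in 50 syngeneic cells. Cells without gate-gene UMIs thus held more replication than mitosis transcripts, and the range from lowest to highest bin was wider for mitosis.

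**Figure D1:**
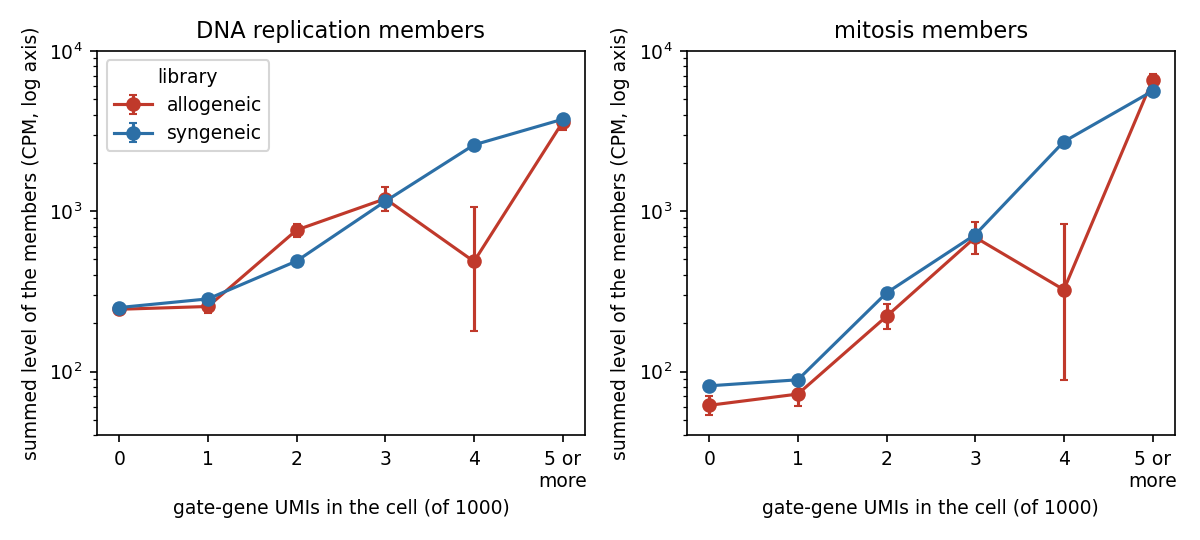
Summed level (CPM, log axis) of the 12 replication genes (left) and the 17 mitosis genes (right) in T and B cells grouped by their gate-gene UMIs out of 1000, in both libraries, with exact 95% Poisson intervals. Levels were highest at 5 or more gate-gene UMIs in both libraries, and the allogeneic point at 4 rests on 4 cells.

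Cycling T cells were few in both libraries and made up a smaller share of the allogeneic T cells. At the strict gate 7 of 1298 allogeneic T cells (0.54%, exact binomial 95% interval 0.22 to 1.11%) and 91 of 6150 syngeneic T cells (1.48%, 1.19 to 1.81%) were cycling. At the wide gate the shares were 2.003% (26 cells) and 3.72% (229 cells). Without thinning, 32.4% and 47.6% of T cells passed the wide gate. Intervals cover counting error only, here and throughout. Over 10 random thinnings the strict allogeneic share ran from 0.54% to 0.85% (median 0.69%) and the syngeneic share from 1.46% to 1.66% (median 1.53%), so the thinning used here lies at the low end for the allogeneic library. No erythroid cell or neutrophil passed the strict gate in either library, nor did any of 25 syngeneic plasmacytoid dendritic cells. Among the erythroid cells this was 0 of 78 in the allogeneic library, at a median of 9502.5 UMIs, where 3 cells of the total would be 3.85% and the exact interval reaches 4.62%.

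The difference in share was smaller with a common minimum depth. With only T cells of at least 3447 UMIs, the syngeneic minimum, the strict shares were 0.84% (0.31 to 1.82%, 6 of 715 cells) and 1.48%, and their intervals overlapped. Above that minimum depths still differed, with 31 of 715 and 580 of 6150 T cells at 8000 UMIs or more. The median over the 10 thinnings was then 1.12%, with a range of 0.84 to 1.40%. Cycling T cells carried many UMIs, with a median of 10923 in the allogeneic and 15036 in the syngeneic library, against 3577 and 4859 for all T cells. Of T cells with at least 8000 UMIs, 4 of 31 (12.9%, 3.63 to 29.8%) and 78 of 580 (13.4%, 10.8 to 16.5%) were cycling. From 5000 to 8000 UMIs there were 2 of 172 (1.16%) and 13 of 2231 (0.58%), and from 3447 to 5000 UMIs 0 of 512 and 0 of 3339. Within each of these bands the intervals of the shares overlapped.

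By T cell class, allogeneic counts at the strict gate were 0 of 260 CD4 T cells, 1 of 455 CD8 T cells and 0 of 91 regulatory T cells. The syngeneic counts were 15 of 1241 CD4 T cells (1.21%, 0.68 to 1.99%), 23 of 2865 CD8 T cells (0.80%, 0.51 to 1.20%) and 9 of 151 regulatory T cells (5.96%, 2.76 to 11.0%). For the allogeneic zeros, 3 cells of the total would be 1.15% (CD4) and 3.30% (regulatory), and the exact intervals reach 1.41% and 3.97%. T cells of no named class were cycling in 6 of 492 (1.22%, 0.45 to 2.64%) and 44 of 1893 cells (2.32%, 1.69 to 3.11%) at the strict gate, and at the wide gate in 4.47% and 4.49%. At the matched floor their allogeneic shares were 2.53% (strict) and 6.33% (wide, 3.59 to 10.2%), so no lower share was seen there. Without that floor, 11 of the 22 allogeneic and 17 of the 85 syngeneic wide-gate cells of no named class held no mitosis UMI. The wide gate gave 2 against 33 CD4, 2 against 96 CD8 and 0 against 15 regulatory T cells, but the allogeneic count ran over the 10 thinnings from 2 to 17 in CD8 T cells and from 0 to 7 in regulatory T cells. The median wide shares of regulatory T cells were 4.396% and 8.94%, and with a gate of 2 UMIs the direction was reversed, at 2.58 percentage points. The gap in CD8 T cells was −2.91 percentage points at the wide gate and −0.94 as the median of 10 thinnings at the strict gate.

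Of the 7 cycling allogeneic T cells, 6 belonged to none of these classes, and 4 of the 7 carried a Foxp3 transcript together with Cd8a or Cd8b1. Foxp3 is the defining factor of regulatory T cells, and the regulatory class had excluded cells with any Cd8 transcript. Counting every T cell with Foxp3, a class made after seeing these cells, 4 of 127 allogeneic (3.15%, 0.86 to 7.87%) and 26 of 286 syngeneic cells (9.09%, 6.02 to 13.04%) were cycling. At the matched floor of 3447 UMIs these were 6.06% (1.68 to 14.8%) and 9.09%. Among T cells with both Foxp3 and Cd8 the shares were 11.1% (4 of 36, 3.11 to 26.1%) and 12.6% (17 of 135, 7.51 to 19.4%). These cells were also deeper than other T cells without Cd4 or Cd8, at medians of 4310 and 6516 UMIs against 3291 and 4292. Since detection of both genes grows with depth, the class and the depth cannot be told apart here.

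B cells outside germinal centres were cycling in 1 of 310 allogeneic (0.32%, 0.01 to 1.78%) and 8 of 1046 syngeneic cells (0.76%, 0.33 to 1.50%). Germinal centre B cells had the highest share in both libraries, 2 of 10 (20%, 2.52 to 55.6%) and 72 of 167 (43.1%, 35.5 to 51.0%). They made up 2 of the 13 cycling cells of the allogeneic library and 72 of the 182 (39.6%, 32.4 to 47.1%) of the syngeneic library. Germinal centre B cells were deeper than other B cells, at medians of 4356.5 and 9960 UMIs against 2324 and 4285. They were 10 of 320 allogeneic and 167 of 1213 syngeneic B cells. At the matched floor they were 6 of 38 allogeneic B cells, and 1 of the 7 allogeneic cycling cells. The part of depth in these counts was not tested. No doublet caller was run, and 499 syngeneic and 11 allogeneic barcodes with T and B genes together were kept out of both classes, among them 9 and 1 strict cycling cells.

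**Figure D2:**
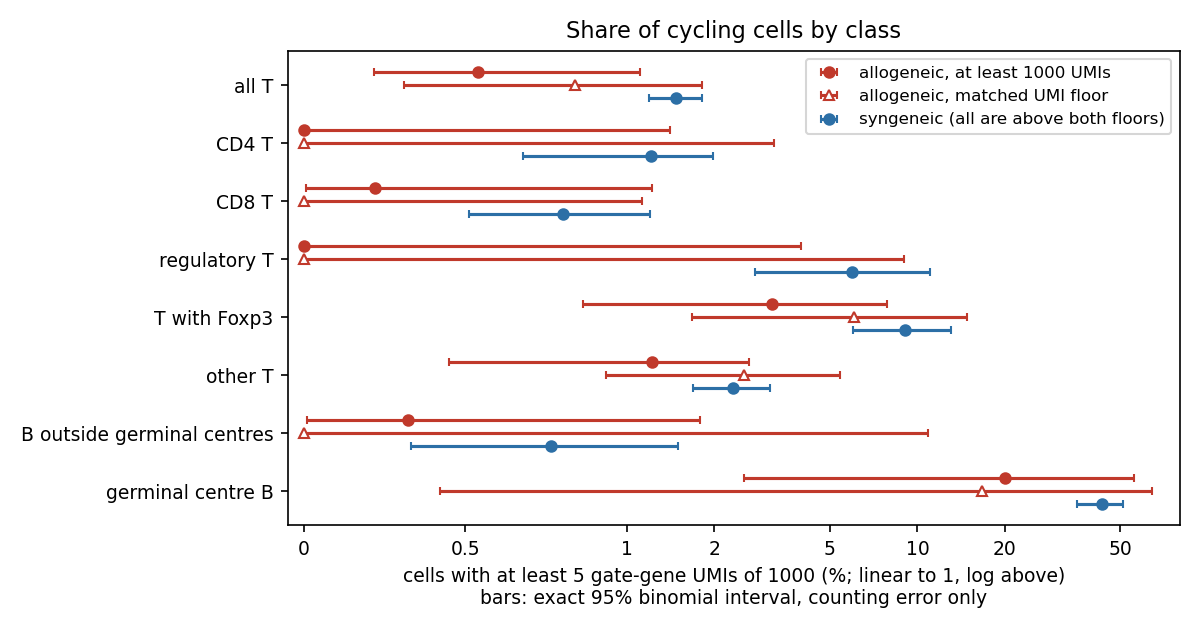
Share of cells with at least 5 gate-gene UMIs of 1000 (percent, linear to 1 and log above) by class, with exact 95% binomial intervals. Filled red points are allogeneic cells of at least 1000 UMIs, open red triangles those of at least 3447 UMIs, and blue points syngeneic cells. Germinal centre B cells stand highest in both libraries, at 20% and 43.1%, and the red and blue intervals of all T cells overlap at the matched floor.

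Summed over all T cells, all 17 mitosis genes and 11 of 12 replication genes were lower in the allogeneic library, the mitosis genes by more. The 17 mitosis genes stood at 172 CPM against 459 CPM, a log2 ratio of −1.41 (−1.51 to −1.32). Of them, 15 were at least 2-fold lower, where 6.2% of the 11580 genes with at least 20 UMIs in T cells were. Their median log2 ratio was −1.54, beside 0.11 over all those genes. The 12 replication genes stood at 366 and 510 CPM (−0.48, −0.55 to −0.41), with 2 of 12 at least 2-fold lower and a median of −0.30. The 5 broadly made genes stood at 1304 and 1882 CPM (−0.53). None of the 39 genes was at least 2-fold higher, where 10.1% of all genes were.

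Among the mitosis genes, Ube2c, which helps the anaphase-promoting complex mark proteins for destruction, was at 5.26 and 42.8 CPM (27 against 1487 UMIs), the lowest ratio at −3.03 (−3.63 to −2.48). The aurora kinase Aurka was at 1.95 and 9.13 CPM (−2.23), the kinetochore protein Cenpf at 4.48 and 20.3 CPM (−2.18), and the main mitotic cyclin Ccnb1 at 3.70 and 14.8 CPM (−2.00). Its partner kinase Cdk1 was at 4.87 and 18.6 CPM (−1.94). The proliferation marker Mki67 stood at 19.7 against 45.4 CPM (−1.21, −1.51 to −0.92) and the DNA untangling enzyme Top2a at 32.3 against 78.9 CPM (−1.29, −1.52 to −1.06). Cenpa, the centromere histone, at 33.1 and 49.6 CPM (−0.58), and Aurkb, at 5.26 and 8.76 CPM (−0.74), were the 2 that were less than 2-fold lower.

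Replication genes spread from near parity to ratios as low as those of mitosis genes. The helicase subunits Mcm2, Mcm3, Mcm4, Mcm6 and Mcm7 had log2 ratios from −0.28 (Mcm4) to 0.01 (Mcm6), and the sliding clamp gene Pcna was at 79.6 and 89.3 CPM (−0.17, −0.32 to −0.02). Lower ratios were seen for the PCNA-associated factor 2810417H13Rik, at 27.1 and 85.5 CPM (−1.66, −1.92 to −1.41), and the ribonucleotide reductase subunit Rrm2, at 16.0 and 36.3 CPM (−1.18). Tyms (−0.85), Mcm5 (−0.73) and Tk1 (−0.68) lay between. The partner subunit Rrm1 stood at 20.8 and 26.0 CPM (−0.32, −0.63 to −0.03). The 2 S phase cyclins were rare, with Ccne1 at 7.01 and 8.38 CPM and Ccne2 at 2.53 and 1.99 CPM, and the intervals of both ratios spanned 0. Among the broadly made genes, Stmn1 (51.2 and 109.7 CPM, −1.10) and the CDK subunit Cks1b (22.2 and 55.3 CPM, −1.32) had lower ratios than Hmgb2 (−0.55), Tubb5 (−0.58) and H2afz (−0.37).

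The histone genes differed in direction. Hist1h1b (15.0 and 41.3 CPM, −1.46) and Hist1h2ae (14.4 and 37.9 CPM, −1.40) were lower in allogeneic T cells, and Hist1h2ap, at 121.5 and 91.8 CPM (0.40, 0.28 to 0.53), was higher. Most replication-dependent histone transcripts lack the poly(A) tail that 3′ libraries capture, and histone genes of a cluster are near-identical copies, so these 3 values are less certain than the others. The same caution on near-copies holds for Tubb5, H2afz and Tyms.

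The T cell classes differed in the size of the mitosis difference, and few cells stood behind it. The 23 strict cycling syngeneic CD8 T cells held 59.2% of the mitosis UMIs of their class, and the 15 in the CD4 class 66.8%. The 1 strict cycling allogeneic CD8 T cell held 0, and the allogeneic CD4 class had no such cell. T cells with Cd4 and Cd8 but no Foxp3 were in no named class, among them 1 allogeneic and 19 syngeneic strict cycling cells. In CD8 T cells the mitosis genes summed to 44.2 and 323 CPM (−2.87, −3.19 to −2.57), with 17 of 17 at least 2-fold lower against 7.75% of genes in that class. Mki67 was at 1 UMI against 550 UMIs there (−6.05, −11.4 to −3.57), Rrm2 at 1 against 422 (−5.67, −11.0 to −3.18) and 2810417H13Rik at 5 against 1074 (−4.70, −6.32 to −3.47). Ccna2, Ccnb1 and Aurkb had 0 allogeneic UMIs in CD8 T cells and were at least 6.91-fold, 6.75-fold and 4.06-fold lower, taking 3 UMIs over the class as the floor. In the same cells Mcm2 (31.1 and 33.5 CPM, −0.11) and Mcm7 (35.7 and 37.4 CPM, −0.07) were near parity. The median over the 17 mitosis genes was −3.31 with the genes at 0 set to that floor, beside 0.04 over all genes.

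In CD4 T cells mitosis stood at 54.0 and 267 CPM (−2.30, −2.74 to −1.90), with 16 of 17 genes at least 2-fold lower against 7.16%, counting the 5 genes at 0 allogeneic UMIs as lower. Birc5, a survivin protein of the dividing spindle, was one of these, at 0 against 167 UMIs and so at least 8.38-fold lower. Regulatory T cells had the highest mitosis level of the named T classes in both libraries, 226 and 1064 CPM (−2.24, −2.59 to −1.90), with 15 of 16 measured genes at least 2-fold lower against 7.39%. By its rule this class leaves out T cells with both Foxp3 and Cd8, among them 4 allogeneic and 17 syngeneic strict cycling cells. Those 4 held 97, 42, 77 and 111 mitosis UMIs, against 77 in the whole allogeneic regulatory class. The level over all T cells with Foxp3 was not computed. T cells of no named class stood at 359 and 718 CPM (−0.999, −1.12 to −0.89), with 10 of 17 at least 2-fold lower against 6.08%. Replication genes had ratios of −0.76 (CD8), −0.84 (CD4), −0.99 (regulatory) and −0.30 (no named class). At least 2-fold higher were 0 of 39 genes in CD4 (9.1% of all genes), CD8 (8.38%) and regulatory T cells (10.3%), and Hist1h2ap alone in T cells of no named class (9.38%). Differences between classes were not tested.

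Most cycling T cells were deep, so a band of depth also selects against them. T cells of 3447 to 8000 UMIs are a band chosen after seeing the data. It leaves out the strict cycling T cells at 8000 UMIs or more, 78 of 91 syngeneic and 4 of 7 allogeneic. The effect of leaving them out on the ratios in this band was not tested. There the mitosis ratio of all T cells was 0.09 (−0.08 to 0.26) and the replication ratio −0.10 (−0.21 to 0.01). In that band mitosis was lower in CD8 T cells at −0.77 (−1.15 to −0.41), against −2.87 over all depths. In CD4 T cells the summed mitosis ratio there was −0.60 (−1.24 to −0.01), on 25 allogeneic UMIs. The median over the mitosis genes was 0.30 in these CD4 T cells, with genes at 0 set to the floor of 3 UMIs, so the direction depends on the summary.

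B cells outside germinal centres had mitosis genes at 108 and 220 CPM (−1.02, −1.35 to −0.70), with 13 of 17 at least 2-fold lower where 11.4% of genes were. That ratio was −0.0339 (−0.47 to 0.38) over the genes with at least 100 UMIs and −0.23 (−1.19 to 0.59) in cells of 3447 to 8000 UMIs. Cenpa went the other way, at 58.5 and 35.0 CPM (0.74, 0.25 to 1.21). Replication genes were at 294 and 374 CPM (−0.35), and 2810417H13Rik had the lowest ratio among them, with 2 against 288 UMIs (2.49 and 53.6 CPM, −4.43, −7.48 to −2.56). Mcm4, Mcm7 and Pcna were slightly higher in the allogeneic library (0.31, 0.31 and 0.14), with intervals that spanned 0. None of the 39 genes was at least 2-fold higher in these B cells, where 9.96% of genes were.

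**Figure D3:**
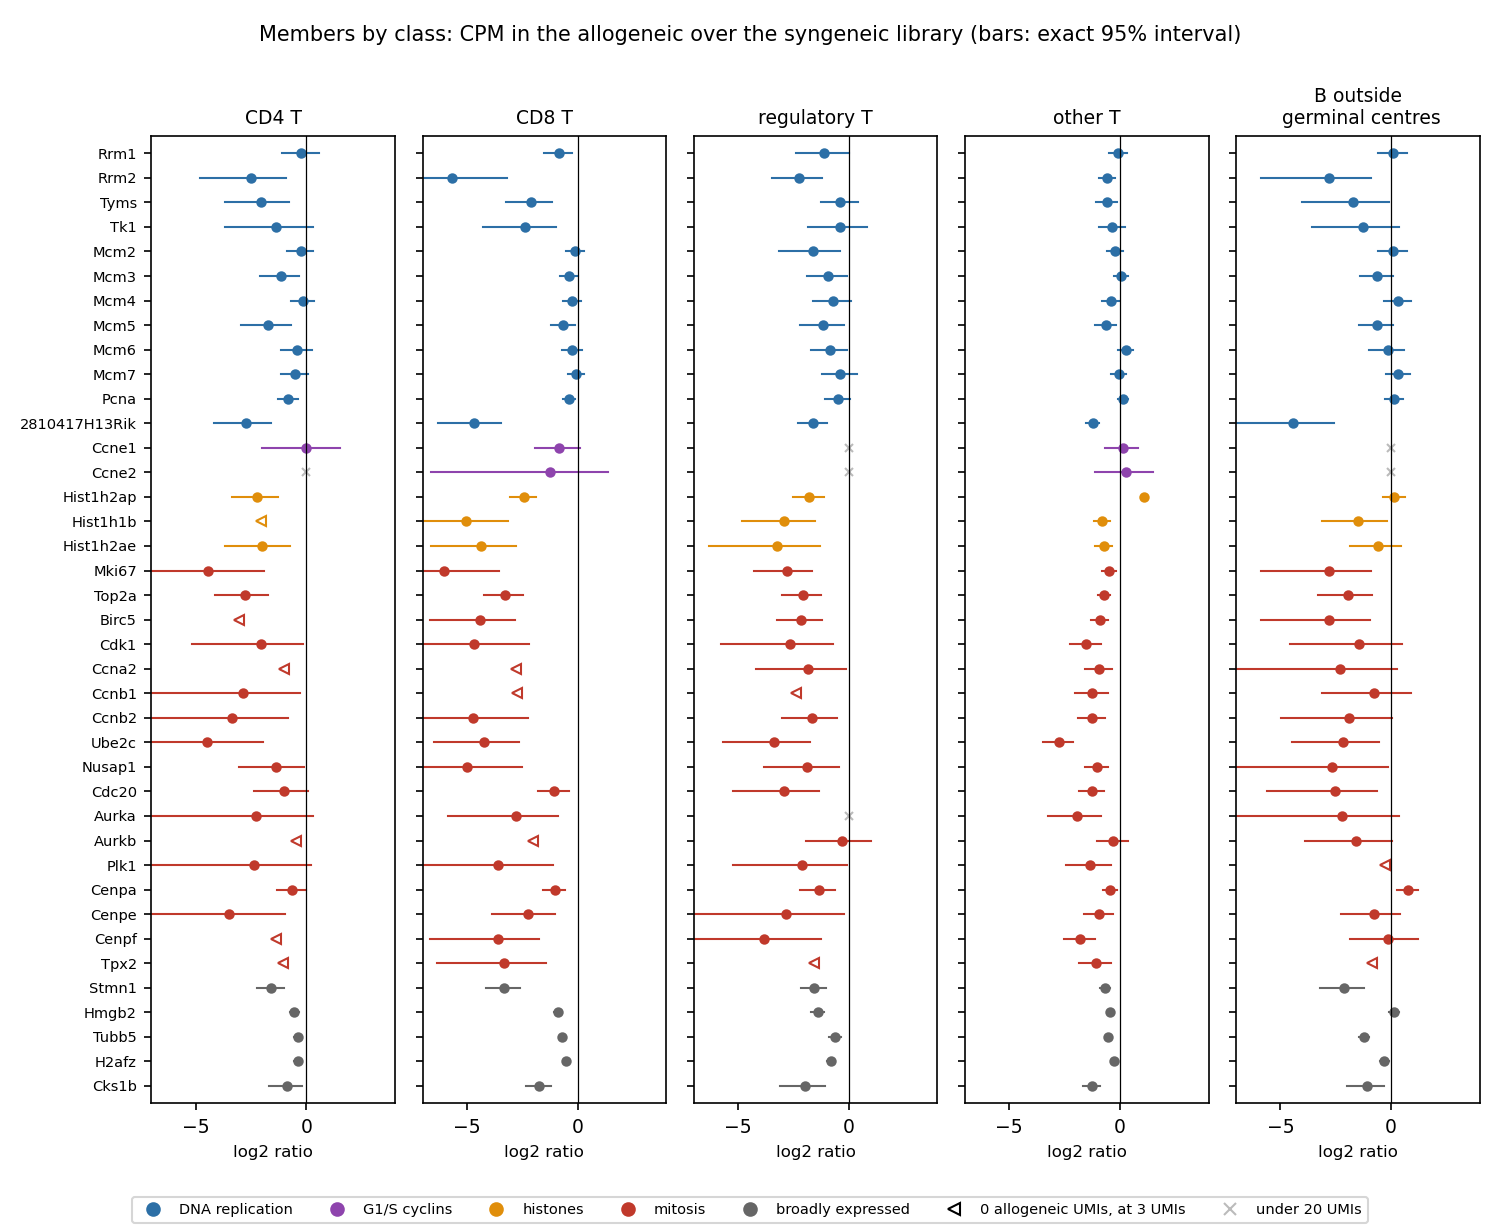
Log2 ratio of CPM, allogeneic over syngeneic, for the 39 genes in 5 classes, with exact 95% intervals (bars stop at −7, triangles mark 0 allogeneic UMIs set to the floor of 3 UMIs, grey crosses genes under 20 UMIs). Mitosis genes (red) lie left of 0 in each T cell class, and Hist1h2ap lies right of 0 in T cells of no named class. The median log2 ratio of the replication genes (blue) is −0.98 in CD4, −0.53 in CD8 and −0.89 in regulatory T cells. It is −0.28 in T cells of no named class and −0.39 in B cells outside germinal centres.

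In T cells past the strict gate, 7 of them allogeneic, the intervals of the replication and mitosis ratios spanned 0. In strict cycling T cells the replication genes summed to 3755 CPM (allogeneic) and 3567 CPM (syngeneic), a log2 ratio of 0.07 (−0.11 to 0.25). Mitosis genes were at 6142 and 5717 CPM (0.10, −0.04 to 0.24) and the broadly made genes at 11629 and 10491 CPM (0.15, 0.04 to 0.25). Histone genes were at 6113 and 2576 CPM (1.25, 1.10 to 1.39). At the wide gate the ratios were −0.23 (−0.38 to −0.08) for replication, −0.40 (−0.54 to −0.27) for mitosis and 1.25 for histones, so the direction for replication and mitosis depends on the gate. Of the wide-gate T cells, 15 of 26 allogeneic and 62 of 229 syngeneic held 0 mitosis UMIs. The median cell held 0 and 4 mitosis UMIs, and 1 and 14 replication UMIs. Looser choices gave lower ratios. With a gate of 2 UMIs, which 129 allogeneic T cells passed, mitosis was at −1.24 (−1.36 to −1.12), replication at −0.43 and histones at 0.27. With thinning to 2000 UMIs, where 120 passed, they were at −1.19, −0.37 and 0.33.

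Few cells stood behind these allogeneic levels. The 7 cells held 6097, 16367, 12117, 6914, 13953, 10923 and 2336 UMIs. In the same order they had 97, 42, 77, 50, 111, 45 and 0 UMIs of mitosis genes, and 11, 84, 44, 2, 80, 35 and 2 UMIs of replication genes. Cells 1 and 4 in this order were thus rich in mitosis and poor in replication transcripts, cells 2, 3, 5 and 6 held both, and cell 7, a CD8 T cell, held almost none. Histone UMIs were 1, 146, 111, 0, 98, 64 and 0, so the 4 cells with the most replication transcripts held nearly all of them. Without the cell with the most histone UMIs the histone ratio was 1.02.

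By gene, the intervals of 31 of the 39 ratios in strict cycling T cells spanned 0, with 5 above and 3 below. The share over all genes in these cells was not computed, so these counts cannot be set apart from those of other genes. Hist1h2ap was at 4745 CPM (4244 to 5289) against 1397 CPM (1344 to 1451), a ratio of 1.76 (1.59 to 1.93), while Hist1h1b (0.35) and Hist1h2ae (0.03) had intervals that spanned 0. Hist1h2ap UMIs in the 7 cells were 0, 106, 88, 0, 72, 60 and 0, and the ratio was 1.59 (1.38 to 1.79) without the highest. Mki67 was at 1033 against 613 CPM (0.75, 0.39 to 1.10), with a UMI in 6 of 7 and 79 of 91 cells, and 0.44 (0.01 to 0.84) without the highest cell. Ube2c was lower, at 204 against 561 CPM (−1.46, −2.34 to −0.71), with a UMI in 4 of 7 and 69 of 91 cells. Cdc20, the activator of the anaphase-promoting complex, was at 146 against 278 CPM (−0.93, −2.00 to −0.04). Cks1b was at 277 against 481 CPM (−0.80, −1.54 to −0.15). Tk1 (0.83, 0.07 to 1.50) and Hmgb2 (0.21, 0.03 to 0.38) were above 0, and without the highest cell both intervals spanned 0. H2afz was at 0.25 (0.07 to 0.43) with all cells and at −0.30 (−0.55 to −0.05) without the highest, so its direction rests on 1 cell.

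**Figure D4:**
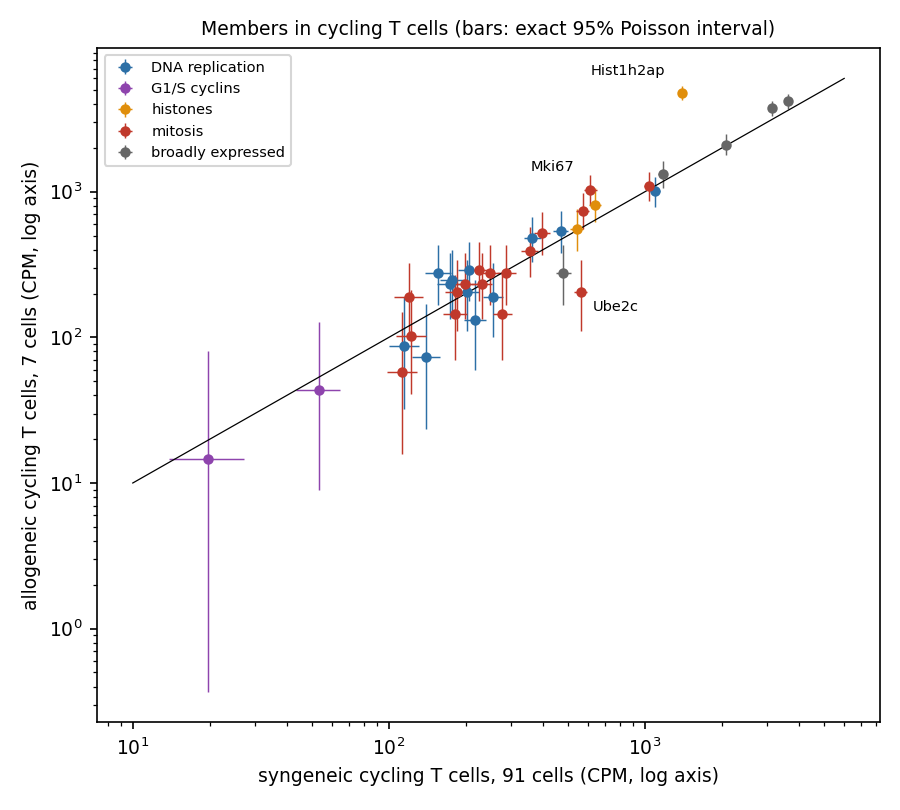
Level of each of the 39 genes in strict cycling T cells, 7 allogeneic cells (y axis) against 91 syngeneic cells (x axis), in CPM on log axes with exact 95% Poisson intervals. The line marks equal levels. Most genes lie on it within their intervals, Hist1h2ap and Mki67 lie above it and Ube2c below.

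The share of T cell transcripts that came from cycling cells differed too. Strict cycling cells held 1.34% of the UMIs of allogeneic T cells and 5.42% of those of syngeneic T cells. They held 47.9% and 67.5% of all mitosis-gene UMIs of T cells, but only 13.8% and 37.9% of the replication-gene UMIs. In T cells outside the wide gate, replication genes were at 300 and 277 CPM (0.11, 0.03 to 0.19) and mitosis genes at 79.6 and 102 CPM (−0.35, −0.51 to −0.20). There Pcna was at 70.4 and 67.6 CPM (0.06), Mcm2 at 32.1 and 31.4 CPM (0.03) and Mcm6 at 31.5 and 23.4 CPM (0.43, 0.17 to 0.68), and Mki67 at 4.03 and 7.49 CPM (−0.89, −1.63 to −0.23). Barcodes outside the T and B cell classes were counted too. The 1071 allogeneic barcodes with too few genes held 110 CPM of replication and 95.4 CPM of mitosis genes. Allogeneic erythroid cells held 31.3 and 30.0 CPM, from 24 and 23 UMIs. Their totals include haemoglobin, by rule above 5% of the UMIs of each such cell, which lowers the CPM of all other genes. The erythroid values are therefore no floor for the levels in T cells.

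The balance of S phase against mitosis depended on the gate. Replication UMIs over mitosis UMIs were 0.61 (0.52 to 0.72) in allogeneic and 0.62 (0.61 to 0.64) in syngeneic strict cycling T cells, and 0.80 (0.70 to 0.91) and 0.71 (0.69 to 0.72) at the wide gate. With a gate of 2 UMIs they were 1.31 and 0.75, a log2 difference of 0.81 (0.65 to 0.97), and with thinning to 2000 UMIs 1.33 and 0.76 (0.81, 0.66 to 0.97). Judged by the gate genes alone, replication was ahead in 1 of 7 (14.3%, 0.36 to 57.9%) and 29 of 91 (31.9%, 22.5 to 42.5%) strict cycling T cells. At the wide gate it was ahead in 13 of 26 and 132 of 229. Among syngeneic classes the UMI ratio was 0.63 in CD4, 0.70 in CD8 and 0.69 in regulatory T cells, 0.72 (0.70 to 0.75) in germinal centre B cells and 0.94 (0.81 to 1.10) in the 8 cycling B cells outside germinal centres.

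**Figure D5:**
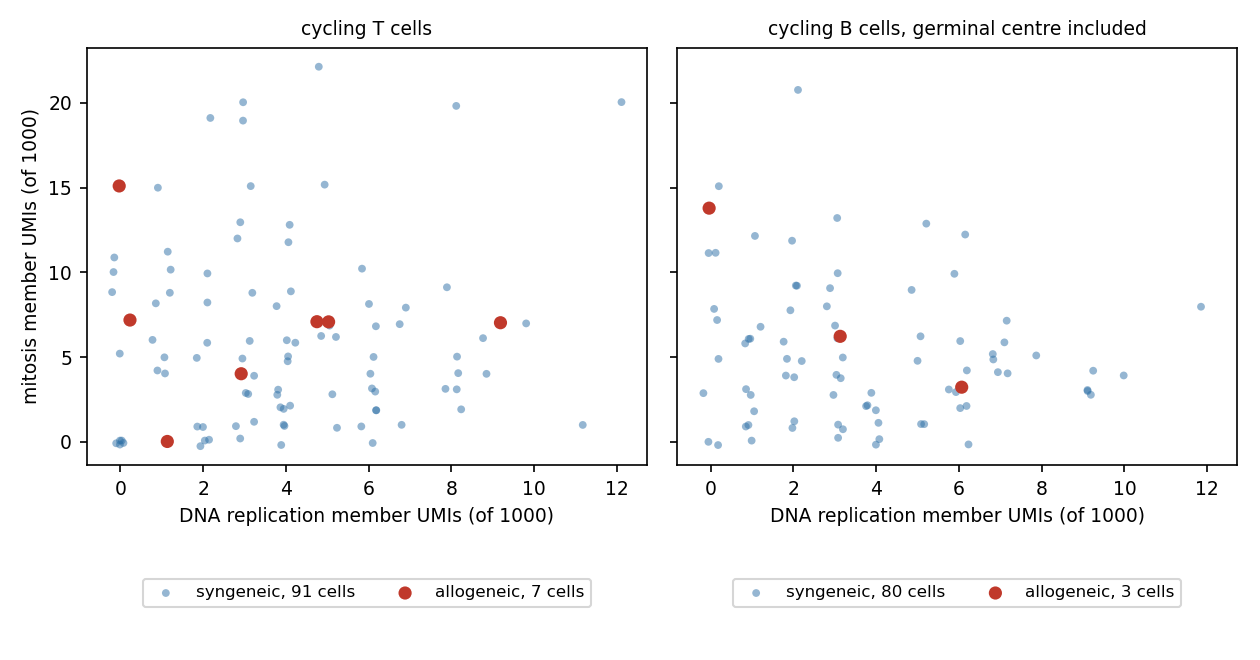
UMIs of replication genes (x axis) and mitosis genes (y axis) out of 1000 in each strict cycling T cell (left) and B cell (right), with points shifted slightly at random so that they do not hide each other. The 7 allogeneic T cells (red) lie within the spread of the 91 syngeneic cells (blue), from 0 to 15 mitosis UMIs.

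Germinal centre B cells carried the highest levels of the 39 genes. In the syngeneic library mitosis genes summed to 3549 CPM and replication genes to 2853 CPM, against 459 and 510 CPM in T cells of the same library. The leading genes there were Hmgb2 (2523 CPM), H2afz (2133 CPM), Tubb5 (1236 CPM), 2810417H13Rik (1048 CPM), Stmn1 (739 CPM), Hist1h2ap (621 CPM), Top2a (524 CPM) and Mki67 (519 CPM). UMIs of 3′ ends count molecules whatever their length, although capture can differ between genes. The allogeneic library held only 10 such cells, with mitosis at 2759 CPM (−0.36, −0.59 to −0.14) and replication at 1299 CPM (−1.13, −1.47 to −0.82). At least 2-fold lower were 8 of 12 replication genes and 4 of 17 mitosis genes, where 28.0% of all genes were. At least 2-fold higher were Hist1h2ap and Ccne1, where 11.1% of genes were. A single cell carried these allogeneic values. Without the cell with the most UMIs of the group, the ratios of the other 9 cells were −2.73 (−3.47 to −2.09) for replication, −2.39 (−2.96 to −1.88) for mitosis and −3.02 (−4.33 to −1.97) for histones, the last against 0.70 with it. Hist1h2ap was then at −2.78 (−4.66 to −1.42), against 1.35.

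Other genes of the cycle, taken from lists of genes outside the 39, gave the same order of roles. In T cells 41 of 44 further mitosis genes had a lower level in the allogeneic library (summed −0.67, median −1.09) and 27 of 32 further replication genes did (summed −0.38, median −0.55). These are the 76 gate genes. At least 2-fold lower were 25 of 44 and 6 of 32, against 6.2% of all genes, and the median over all genes was 0.11. The share of all genes lower by any amount was not computed. Cks2 was lower (27.6 and 54.0 CPM, −0.97), whereas Racgap1 (57.0 and 34.3 CPM, 0.74) and Fen1 (39.1 and 31.0 CPM, 0.34) were higher. Of 27 measured genes of G1 and quiescence 13 were higher and 14 lower, with a median near 0 (−0.00) and a sum of 0.41. Btg1, known as an antiproliferative gene, made most of that sum, at 1798 and 982 CPM in T cells (0.87, 0.84 to 0.91) and 3121 and 1478 CPM in B cells outside germinal centres (1.08). The G1 cyclin Ccnd3 was also higher in T cells (285 and 171 CPM, 0.74), Ccnd2 was near parity there (653 and 664 CPM, −0.03), and Btg2 was lower (182 and 238 CPM, −0.39). In B cells outside germinal centres Ccnd2 was lower, at 69.7 and 280 CPM (−2.01, −2.42 to −1.62), and Ccnd3 higher, at 271.5 and 80.2 CPM (1.76). Among 22 further broadly made genes, 18 were lower in T cells, such as Ran (223 and 448 CPM, −1.01) and Tuba1b (300 and 503 CPM, −0.75), and Ptma (0.05) and Hmgb1 (0.17) were not. Their median was −0.40, and 3 of the 22 were at least 2-fold lower, against 6.2% of all genes.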

How the data were processed

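UMI counts per gene and barcode were deposited by the authors as 1 matrix per library, in whole numbers without normalisation. Libraries were made with Chromium 3′ v3 reagents, per the labels' protocols, and Cell Ranger 2.2.0, STAR, Seurat 2.3.4 and mm10 are named without roles in the submitters' processing notes. How barcodes were selected is not known here. Counts of the 56 symbols with several entries were summed. Of 6 listed T cell markers, 3 were measured. A class needed at least 2 UMIs of its markers and 3 times those of the other lineage. Member levels are CPM of summed counts, counted for genes of 20 or more UMIs in a class, both libraries together, and shares have Clopper-Pearson intervals. Ratios have exact conditional 95% intervals; they cover counting error only. With 1 library per group no test was run. At most 4 genes of each further list, those with the highest CPM, were named, and Cdc20, Cks1b, Tk1, Mki67, H2afz, Hmgb2 and Ube2c in cycling cells were picked by their intervals. Ratio intervals and the strict gate were tried on simulated counts. The simulated cycling cells copied the profile of T cells that had passed that same gate, so its recovery was partly built in. Thinning, the wide gate and the class markers were not tried in this way. Python 3.11.15, numpy 2.4.6, scipy 1.17.1 and pandas 2.3.3 were used. Members and lists were chosen with earlier results of these data known. Alternatives covered depth, gates, thinnings, filters, scaling and marker rules. Some marker genes of the class lists are not reported here.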

Additional observations from a re-analysis of the deposited data

Results flagged for a closer look

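The 3 histone genes together had ratios of opposite direction in different classes. The log2 ratio, allogeneic over syngeneic, was 0.51 in T cells of no named class and 0.70 in germinal centre B cells, but −2.42 in the CD4, −3.13 in the CD8 and −2.17 in the regulatory class. The difference between classes was not tested. T cells with both Foxp3 and Cd8, 4 strict cycling allogeneic cells among them, were counted in no named class and not as regulatory. In T cells of no named class Hist1h2ap alone was higher (305.8 and 143.3 CPM, 1.09), whereas Hist1h1b (−0.80) and Hist1h2ae (−0.72) were lower, and in the 10 allogeneic germinal centre B cells Hist1h2ap stood at 1588 against 621 CPM (1.35). The germinal centre B value rests on 1 cell: without it the histone ratio was −3.02 and that of Hist1h2ap −2.78. In T cells of no named class, the 6 strict cycling cells held 59.7% of the allogeneic histone UMIs.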

How the results depend on the processing

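Values are allogeneic minus syngeneic shares in percentage points at the wide gate, or log2 ratios. In all T cells the share gap of −1.72 became −15.2 without thinning, −0.58 with another random seed and −0.64 with the strict gate at the matched floor. In CD4 T cells −1.89 became −16.2 without thinning and −3.24 with a gate of 2 UMIs. In CD8 T cells −2.91 became −1.48 with thinning to 2000 UMIs, −11.5 without thinning, −0.35 with another seed, −0.98 with a gate of 2, −0.58 with a gate of 5, −0.80 with a gate of 5 and the matched floor, −1.54 as the median of 10 thinnings and −0.94 as that median with a gate of 5. In regulatory T cells −9.93 became −0.69 with another seed and 2.58, the other direction, with a gate of 2. In B cells outside germinal centres −1.26 became −5.77 with 2000 UMIs, −43.9 without thinning and −5.45 at the matched floor. The cause was not tested.

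Of 84 class levels under alternatives, 80 kept their direction. The 4 others were mitosis in T cells and replication in CD8 T cells in the band of 3447 to 8000 UMIs, and histones and Hist1h2ap in germinal centre B cells without 1 cell. The 84 include alternatives that left a value unchanged, such as the minimum of UMIs in all T cells, so the count is no measure of robustness. At the matched floor the log2 ratios were −0.25 (replication) and −1.07 (mitosis) in T cells, −0.51 and −1.70 in the regulatory class, and −0.63 and −1.36 among B cells. Only 32 allogeneic B cells outside germinal centres and 39 allogeneic regulatory T cells reached that floor. In the band of 3447 to 8000 UMIs they were −0.10 and 0.0906 in T cells, −0.22 and −0.60 in CD4, 0.0533 and −0.77 in CD8, −0.18 and −0.39 in the regulatory class, and −0.0359 and −0.23 among B cells. Replication in T cells was −0.57 with median-ratio scaling, mitosis in T cells −1.58 with a filter of 500 genes and 5% mitochondrial UMIs, and mitosis in B cells −0.0339 for genes of at least 100 UMIs and −1.52 with stricter markers. In germinal centre B cells without 1 allogeneic cell, replication moved from −1.13 to −2.73, mitosis from −0.36 to −2.39, histones from 0.70 to −3.02 and Hist1h2ap from 1.35 to −2.78.

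In cycling T cells, replication was −0.43 with a gate of 2, 0.0742 with a gate of 5, 0.0158 at the matched floor and 0.11 with both. Mitosis was −1.19 with 2000 UMIs, −1.24 with a gate of 2, 0.10 with a gate of 5, −0.00933 without the highest cell at that gate, −0.14 at the matched floor and 0.15 with a gate of 5 and the floor. Histones were 0.33 with 2000 UMIs, 0.27 with a gate of 2, 1.02 without the highest cell and 1.53 at the matched floor. Replication over mitosis, 0.18 on the log2 scale, was 0.81 with 2000 UMIs, 0.81 with a gate of 2 and −0.0293 with a gate of 5. Alternatives with 10 thinnings, both gate-and-floor pairs, the depth band and the left-out cells were chosen after seeing the data. No paired analysis was possible because each group has 1 library.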
